A study of Mus musculus with 4 samples.

Results

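The Nanog, Dppa3 and Gdf3 gene cluster of mouse chromosome 6 was examined for NANOG binding in embryonic stem cells (ESCs). Its members were all NANOG windows whose centre lay from base 122500000 to base 122815000 of chromosome 6 (GRCm38/mm10), a rule that used position and no measured value. This gave 12 of the 21066 windows of the series. Each window was 351 bp wide and centred on a NANOG peak summit. Of the 12, 11 reached 0.9 RPKM (reads corrected for window length and for the size of the library), the threshold of the study, in at least one condition, as did 16608 windows of the series, and these are called bound windows.

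NANOG binding was measured by chromatin immunoprecipitation and sequencing (ChIP-seq) in ZHBT-O4AID ESCs of strain 129SV. All 4 libraries shared one genotype, Oct4-/- with TetOFF Oct4, CAG Oct4AID and CAG Tir1, so that wild-type Oct4 was held off by doxycycline in both groups and OCT4 came only from a constitutive CAG promoter, as a fusion to the auxin-inducible degron. With auxin and the TIR1 adaptor, this tag causes the proteasome to degrade the fusion. The uninduced group (2 replicates) received no auxin, and the IAA group (2 replicates) received the auxin indole-3-acetic acid at 500 µM for 1.5 h. The comparison asks how NANOG occupancy differed shortly after the onset of OCT4 depletion. The cells were grown in N2B27 with LIF and inhibitors of MEK and GSK3. These libraries hold neither cells given IAA without the degron nor a measurement of OCT4 protein or RNA, so neither depletion nor cell identity was checked here.

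Nanog encodes a homeodomain transcription factor of the pluripotency network, which binds regulatory elements of many pluripotency genes, its own among them, often near OCT4 and SOX2. Gdf3 encodes a ligand of the TGF-β family related to NODAL, and Dppa3 (also called Stella) encodes a protein that protects DNA methylation in the early embryo. The 3 genes are neighbours and are expressed in mouse ESCs, where enhancers have been described on both sides of Nanog. Further genes of the interval encode a microfibril protein (Mfap5), a cytidine deaminase (Apobec1) and the glucose transporter GLUT3 (Slc2a3).

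In the GENCODE annotation Gdf3 (ENSMUSG00000030117.5) lies on the minus strand at chr6:122605403-122610087. Dppa3 (ENSMUSG00000046323.8) lies on the plus strand at chr6:122626410-122630272, and Nanog (ENSMUSG00000012396.12) on the plus strand at chr6:122707489-122714633. The windows are named here by the gene that holds them or by their distance from an annotated start, with a minus sign for upstream. Only 2 of the 12 windows lay within 5 kb of a start of the 3 genes, 1 in the intron of Gdf3 and 1 upstream of Nanog. By nearest start of the 3 genes, 3 bound windows belonged to Gdf3, 2 to Dppa3 and 6 to Nanog. Of the 11 bound windows 6 were intronic, 4 intergenic and 1 touched an exon. The windows did not overlap, with the smallest gap 2642 bp, so no read stretch was counted in more than 1 window.

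The reference sequences of 5 bound windows are shown as the places of the binding described here, namely the strongest window of the region, the windows nearest to Gdf3 and to Nanog, and further windows with an OCT4 flag. Each gives the central 300 bases on the plus strand of GRCm38, and capitals mark matches to the octamer ATGCNAAT or to the KLF box GGGNGTGG on either strand. The bound window nearest to Dppa3 by its start is the Gdf3 intron window, which is shown once.
Mfap5 intron, chr6:122509768-122510067: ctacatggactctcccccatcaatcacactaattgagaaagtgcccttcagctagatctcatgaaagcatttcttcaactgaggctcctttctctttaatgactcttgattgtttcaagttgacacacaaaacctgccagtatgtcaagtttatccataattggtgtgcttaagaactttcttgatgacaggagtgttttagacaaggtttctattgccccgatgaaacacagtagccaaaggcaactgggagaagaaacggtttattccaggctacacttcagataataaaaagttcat
Gdf3 intron, chr6:122608455-122608754: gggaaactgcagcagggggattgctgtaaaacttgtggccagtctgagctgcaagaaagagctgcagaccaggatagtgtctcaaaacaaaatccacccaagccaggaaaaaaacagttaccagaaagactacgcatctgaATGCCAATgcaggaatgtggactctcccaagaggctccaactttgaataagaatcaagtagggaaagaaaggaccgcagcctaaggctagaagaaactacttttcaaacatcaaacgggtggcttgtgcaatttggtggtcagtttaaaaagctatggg
Nanog -43.5 kb, chr6:122663833-122664132: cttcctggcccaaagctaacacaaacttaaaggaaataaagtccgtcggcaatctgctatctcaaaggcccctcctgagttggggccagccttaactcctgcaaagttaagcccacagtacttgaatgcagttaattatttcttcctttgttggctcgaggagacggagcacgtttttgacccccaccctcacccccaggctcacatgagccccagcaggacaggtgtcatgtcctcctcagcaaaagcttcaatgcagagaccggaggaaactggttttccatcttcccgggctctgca
Nanog -4.9 kb, chr6:122702467-122702766: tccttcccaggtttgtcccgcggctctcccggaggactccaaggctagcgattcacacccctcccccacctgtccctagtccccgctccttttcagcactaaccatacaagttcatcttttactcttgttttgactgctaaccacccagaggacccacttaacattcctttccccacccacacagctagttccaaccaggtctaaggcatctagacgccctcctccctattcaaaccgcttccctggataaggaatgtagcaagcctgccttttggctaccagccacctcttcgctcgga
Nanog +58.9 kb, chr6:122766215-122766514: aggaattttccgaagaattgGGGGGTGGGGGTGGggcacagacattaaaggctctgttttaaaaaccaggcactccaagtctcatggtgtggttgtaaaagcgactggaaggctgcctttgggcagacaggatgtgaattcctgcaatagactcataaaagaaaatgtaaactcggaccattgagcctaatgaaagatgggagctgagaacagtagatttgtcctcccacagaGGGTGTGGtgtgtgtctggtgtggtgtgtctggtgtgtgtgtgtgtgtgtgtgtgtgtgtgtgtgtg

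The Nanog promoter itself held no window of the series, and the nearest window ended 4446 bp before the 250 bases shown here. These bases precede the more upstream of the Nanog starts in RefSeq (GRCm38.p6, plus strand), and capitals mark, from left to right, ATGCAAA (the octamer without its last base) and the SOX core CATTGT, both on the minus strand, and a KLF box.
Nanog upstream, chr6:122707239-122707488: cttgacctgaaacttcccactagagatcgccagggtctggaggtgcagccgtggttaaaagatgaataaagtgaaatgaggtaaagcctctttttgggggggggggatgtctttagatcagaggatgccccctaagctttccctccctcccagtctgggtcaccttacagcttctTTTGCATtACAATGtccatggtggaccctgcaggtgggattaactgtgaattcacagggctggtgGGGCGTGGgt

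The SOX core lay from -67 to -62 relative to the start, with ATGCAAA from -75 to -69 beside it and the KLF box from -10 to -3. Among 32851 promoters of the table, 12.6% held CATTGT, 4.63% held ATGCAAA and 17.6% held GGGNGTGG over their 300 bases.

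In the windows, 8 motifs were searched on both strands, of which ATGCAAA was added after other matches had been seen. Every match to ATGCAAAT is also a match to ATGCNAAT, and ATGCAAAT also contains ATGCAAA. The octamer ATGCAAAT was in 0 of the 11 bound windows and in 2.96% of all bound windows, and ATGCAAA was in 0 of 11 and in 8.92%. The relaxed octamer ATGCNAAT was in 1 window, the Gdf3 intron window, where atgccaat lay 6 bp before the summit. It was in 6.12% of all bound windows and in 14.8% of those with an OCT4 flag. The SOX core CATTGT was in 2 windows (37.0% of all bound windows), the Dppa3 +26.9 kb window, 4 bp after the summit, and the Nanog +72.1 kb window, 11 bp before it. The homeodomain motif TAATGG was in 2 (20.9%), the Mfap5 intron window, at its edge 173 bp from the summit and outside the bases shown, and the Nanog +72.1 kb window. The nuclear receptor motif AAGGTCA was in 2 (18.7%), the Nanog +75.1 kb and +103.3 kb windows, and GGGNGTGG was in 2 (15.9%), the Nanog +55.2 kb and +58.9 kb windows. The composite of the SOX core and the relaxed octamer was in 0 of 11 and in 3 of the 21066 windows. In 3 bound windows, Apobec1, Nanog -43.5 kb and Nanog -4.9 kb, none of these letters was found.

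Depth and background set what the windows can show. The RPKM values were whole multiples of 1 read, which gave library sizes from 5406307 reads (IAA replicate 2) to 19634763 reads (IAA replicate 1). The reads outside all windows, spread evenly over the genome, would give 0.366 to 0.372 RPKM, and no value of 0 is listed, so that 0 reads cannot be told from 1. The share of all reads in bound windows was 1.60% and 2.28% in the uninduced libraries and 3.05% and 3.24% in the IAA libraries. The median bound window stood at 2.08 and 2.93 RPKM in uninduced and 3.92 and 4.22 RPKM in IAA libraries, so most windows of the series were higher after IAA on this scale. The median change over all bound windows was 0.76 in log2(RPKM + 0.1). The added 0.1 makes the change of a weak window look smaller than it is. Values below should be read against this shift, which another scaling of the libraries removes. The labels do not say that the replicates came from separate cultures, so p-values measure the spread between these libraries only. The SE and p-values of limma take this spread mainly from all bound windows of like level, not from the single window. The SE was 0.51 at Gdf3 intron and 0.52 at Nanog +103.3 kb. There IAA replicate 2 differed from replicate 1 by 1.54 and 0.16 in log2(RPKM + 0.1).

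NANOG windows were dense in the cluster. When the genome was divided into 8663 tiles of 315001 bp, 5291 held a bound window, the median tile held 1 and the mean was 1.92. The 11 bound windows of the cluster were matched or exceeded in 76 tiles (0.877%), up to 20 in one tile. Their summed mean signal of 69.4 RPKM was matched or exceeded in 46 tiles (0.531%). The interval was chosen for its genes, and these shares describe it without a test.

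The cluster also carried more flags than the series, which come from published data of other ESC lines. An OCT4 peak within 1 kb was flagged at 5 of the 11 bound windows (45.5%), against 23.7% of all bound windows. Active enhancer was flagged at 5 (45.5%, against 10.6%) and active promoter at 2 (18.2%, against 2.87%). No bound window had the repressed flag, against 5.58%, and 4 had no flag (36.4%, against 67.1%). The 5 windows with an OCT4 flag were Apobec1, Gdf3 intron, Nanog -43.5 kb, Nanog -4.9 kb and Nanog +58.9 kb. The last 3 of these also had the enhancer flag, as did Gdf3 intron and Nanog +55.2 kb.

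**Figure D1:**
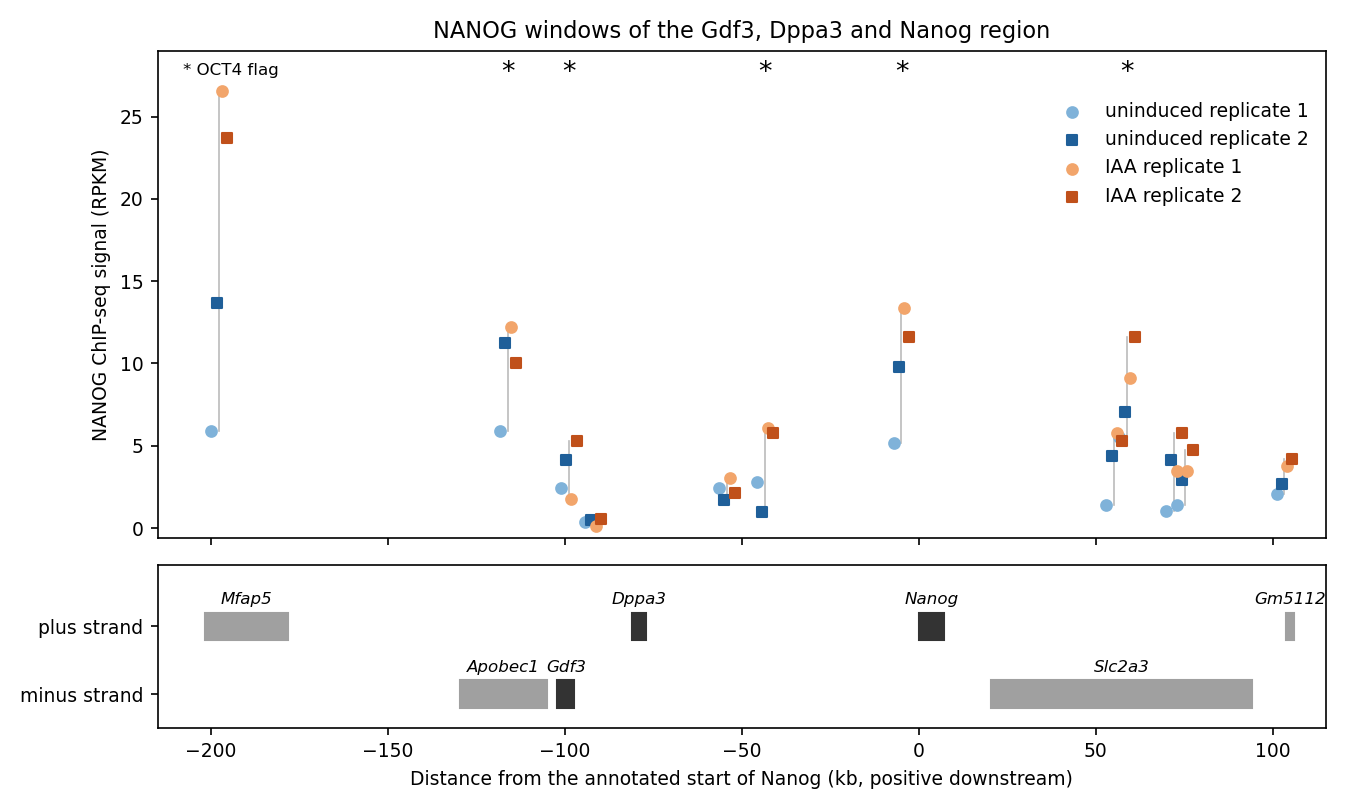
NANOG signal (RPKM, upper panel) of the 12 windows in each of the 4 libraries against distance from the Nanog start (kb), with the genes named in the text by strand below and the members in black. Points are single libraries, set slightly apart sideways and joined by a grey line over their range, and stars mark an OCT4 flag. The Mfap5 intron window is the highest at 26.6 and 23.7 RPKM after IAA, and the window between Gdf3 and Dppa3 lies at 0.527 RPKM or less.

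At Gdf3, the ligand gene, 1 bound window lay within the gene. The Gdf3 intron window (chr6:122608430-122608780) was centred 1482 bp after the start, in the intron, and had OCT4, promoter and enhancer flags. It held 2.42 RPKM (7 reads) and 4.15 RPKM (17 reads) in uninduced replicates 1 and 2, and 1.74 RPKM (12 reads) and 5.27 RPKM (10 reads) in IAA replicates 1 and 2. Both the highest and the lowest value came from an IAA library, and the groups overlapped. The 95% Poisson intervals, which cover counting error only, were 0.90 to 3.04 RPKM in IAA replicate 1 and 2.53 to 9.69 RPKM in replicate 2. The group means were 3.28 ± 1.22 and 3.51 ± 2.50 RPKM (SD, n = 2). The change was -0.06 ± 0.51 (SE) in log2(RPKM + 0.1), with an adjusted p of 0.942 by limma, and its sign turned without uninduced replicate 2 (0.32) or without IAA replicate 1 (0.71). This was the sole negative estimate among the 11 bound windows.

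A sub-threshold window lay between Gdf3 and Dppa3 (chr6:122615339-122615689), 5427 bp upstream of the Gdf3 start and 10896 bp upstream of that of Dppa3. It had the repressed flag, a GC content of 66.4%, and 100% of its bases were marked as repeats. It held 1 and 2 reads in uninduced replicates 1 and 2 and 1 read in each IAA library, which is 0.346, 0.488, 0.145 and 0.527 RPKM. These values lie at the level of 1 or 2 reads and near the even background, so no fold was computed.

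Dppa3 had no bound window in its body or upstream as far as the Gdf3 intron. The nearest one downstream, the Dppa3 +26.9 kb window (chr6:122653136-122653486), was intergenic with no flag. It held 2.42 RPKM (7 reads) and 1.71 RPKM (7 reads) in uninduced and 3.05 RPKM (21 reads) and 2.11 RPKM (4 reads) in IAA libraries. The groups overlapped, with means of 2.06 ± 0.50 and 2.58 ± 0.66 RPKM (SD, n = 2). The change of 0.30 ± 0.58 (SE) in log2(RPKM + 0.1) had an adjusted p of 0.716 (limma), and it was negative with quantile normalization (-0.48) and with centring of each library on its median (-0.39).

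Between Dppa3 and Nanog, the Nanog -43.5 kb window (chr6:122663808-122664158) was intergenic with OCT4 and enhancer flags. It was centred 37.6 kb after the Dppa3 start, nearer than to the Nanog start, and is counted with Dppa3 above. It held 2.77 RPKM (8 reads) and 0.976 RPKM (4 reads) in uninduced replicates 1 and 2, and 6.09 RPKM (42 reads) and 5.80 RPKM (11 reads) in IAA replicates 1 and 2. Both IAA values lay above both uninduced values. NANOG signal rose here from 1.87 ± 1.27 to 5.95 ± 0.21 RPKM (SD, n = 2), a ratio of 3.18. The change was 1.78 ± 0.51 (SE) in log2(RPKM + 0.1), adjusted p = 0.0120 (limma), and it exceeded 94.8% of all bound windows. The counts behind it were small, with 95% Poisson intervals of 1.19 to 5.45 and 0.266 to 2.50 RPKM in the uninduced libraries and 4.39 to 8.24 and 2.89 to 10.4 RPKM in the IAA libraries. Its change exceeded that of the median bound window in each of the 4 pairs of an IAA with an uninduced library, by 0.08 to 2.02. Its size rested on the uninduced libraries, at 2.49 without replicate 1 and 1.08 without replicate 2. The call was lost without either IAA library, with quantile normalization, with centring and with eBayes without a trend. Most calls of the series were lost in these settings too.

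The window nearest to the Nanog start, Nanog -4.9 kb (chr6:122702442-122702792), was centred 4872 bp upstream and had OCT4 and enhancer flags. It held 5.19 RPKM (15 reads) and 9.76 RPKM (40 reads) in uninduced and 13.3 RPKM (92 reads) and 11.6 RPKM (22 reads) in IAA libraries. Both IAA values were above both uninduced values. The means were 7.47 ± 3.23 and 12.5 ± 1.24 RPKM (SD, n = 2), and the change of 0.80 ± 0.42 (SE) in log2(RPKM + 0.1) was close to that of the median bound window and did not pass the test (adjusted p = 0.164, limma). It was 0.35 without uninduced replicate 1, and 1.25 and past the threshold without uninduced replicate 2. By mean level this window stood at the 94.0th percentile of all bound windows.

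Downstream of Nanog, 4 bound windows lay in introns of Slc2a3, the glucose transporter gene, whose longest annotated transcript spans them. The strongest, Nanog +58.9 kb (chr6:122766190-122766540), had OCT4 and enhancer flags. It held 5.53 RPKM (16 reads) and 7.08 RPKM (29 reads) in uninduced and 9.14 RPKM (63 reads) and 11.6 RPKM (22 reads) in IAA libraries. The groups did not overlap, with means of 6.31 ± 1.09 and 10.4 ± 1.73 RPKM (SD, n = 2). The change was 0.71 ± 0.42 (SE) in log2(RPKM + 0.1), adjusted p = 0.217 (limma).

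The Nanog +55.2 kb window (chr6:122762474-122762824), with the enhancer flag alone, held 1.38 and 4.39 RPKM in uninduced and 5.80 and 5.27 RPKM in IAA libraries. Both IAA values lay above both uninduced values, and the change of 1.12 ± 0.48 (SE) had an adjusted p of 0.0863 (limma). The other windows in Slc2a3 had no flag. Nanog +72.1 kb (chr6:122779410-122779760), 372 bp from a start of a Slc2a3 transcript, held 1.04 and 4.15 RPKM in uninduced and 3.48 and 5.80 RPKM in IAA libraries. Its groups overlapped, and its change was 1.06 ± 0.52 (SE, adjusted p = 0.128, limma). Nanog +75.1 kb (chr6:122782403-122782753) held 1.38 and 2.93 RPKM in uninduced and 3.48 and 4.74 RPKM in IAA libraries. Its groups did not overlap, and its change was 0.97 ± 0.53 (SE, adjusted p = 0.174, limma).

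In 3 of these 4 windows, +55.2, +72.1 and +75.1 kb, uninduced replicate 1 was the lowest library at 3 or 4 reads. Without it their changes were 0.33, 0.11 and 0.46. Without uninduced replicate 2 they were 1.92, 2.01 and 1.49 and all 3 passed the test, with adjusted p from 2.2e-04 to 0.0152 (limma). Farther downstream the Nanog +103.3 kb window (chr6:122810607-122810957) was intergenic, 388 bp from the start of the predicted gene Gm5112, and had the promoter flag. It held 2.08 and 2.68 RPKM in uninduced and 3.77 and 4.22 RPKM in IAA libraries. The groups did not overlap and the change was 0.73 ± 0.52 (SE, adjusted p = 0.299, limma).

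At the Gdf3 side of the interval, the strongest window lay in an intron of Mfap5 (chr6:122509743-122510093), 197.6 kb from the Nanog start, and had no flag. This window had 45.6% of its bases marked as repeats, the most of the bound windows, beside 42.7% at Nanog +58.9 kb and 40.5% at Nanog +55.2 kb. It held 5.88 RPKM (17 reads) and 13.7 RPKM (56 reads) in uninduced replicates 1 and 2, and 26.6 RPKM (183 reads) and 23.7 RPKM (45 reads) in IAA replicates 1 and 2. It was first or tied for first among the cluster's windows in every library, and its IAA values lay above its uninduced values. NANOG signal rose from 9.77 ± 5.51 to 25.1 ± 2.01 RPKM (SD, n = 2), a ratio of 2.57. The change was 1.47 ± 0.43 (SE) in log2(RPKM + 0.1), adjusted p = 0.0142 (limma), and it exceeded that of the median bound window in all 4 pairs of libraries, by 0.27 to 1.21. Uninduced replicate 1 carried part of this value. Without it the change was 0.87 with an adjusted p of 0.0840 (limma).

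The Apobec1 window (chr6:122591185-122591535) was centred 18.7 kb after the Gdf3 start, overlapped an exon and an untranslated region of Apobec1, and had an OCT4 flag. It held 5.88 RPKM (17 reads) and 11.2 RPKM (46 reads) in uninduced and 12.2 RPKM (84 reads) and 10.01 RPKM (19 reads) in IAA libraries. The groups overlapped, since IAA replicate 2 lay below uninduced replicate 2. The change of 0.44 ± 0.42 (SE) in log2(RPKM + 0.1) had an adjusted p of 0.452 (limma). It was -0.25 with quantile normalization, -0.26 with centring and -0.0228 without uninduced replicate 1.

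**Figure D2:**
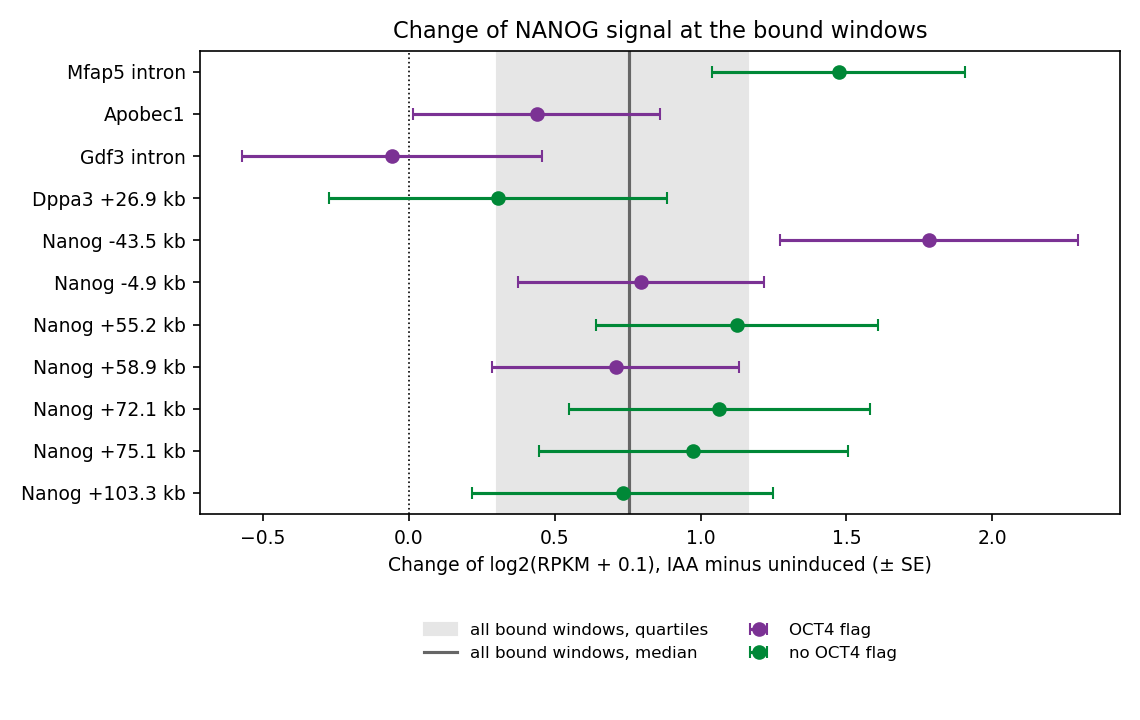
Change of log2(RPKM + 0.1), IAA minus uninduced, at the 11 bound windows in order along the chromosome (n = 2 libraries per group). Bars are the SE from limma, which rests mainly on all bound windows of like level and does not show each window's own spread. The grey band and line give the quartiles (0.30 and 1.16) and the median (0.76) over 16608 bound windows, and the Mfap5 intron and Nanog -43.5 kb windows lie to the right of the band.

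Across the cluster, 2 of 11 bound windows rose (Mfap5 intron and Nanog -43.5 kb) and 0 fell by limma at an adjusted p under 0.05, where 15.0% of all bound windows rose and 0.337% fell. A count of 2 of 11 is near this background. At an unadjusted p under 0.05, 4 of 11 were higher and none was lower, the others being Nanog +55.2 kb and Nanog +72.1 kb, beside 33.1% higher and 0.861% lower over all bound windows. Both calls were lost with quantile normalization, with centring, with eBayes without a variance trend and without either IAA library. Over the series 0 windows were called higher with quantile normalization, 47 with centring and 157 without a trend, against 2493 in the main fit. These losses are therefore not particular to the 2 windows. After centring the changes were 0.78 at Mfap5 intron and 1.08 at Nanog -43.5 kb, with adjusted p of 0.140 and 0.336 (limma). By voom on the recovered reads 2 windows were called higher and 0 lower. Without uninduced replicate 2, 8 windows were called higher.

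The 2 IAA libraries each exceeded the 2 uninduced ones at 7 of 11 bound windows, beside 60.5% of all bound windows. The opposite order occurred at 0 windows, and 4 windows overlapped (Apobec1, Gdf3 intron, Dppa3 +26.9 kb and Nanog +72.1 kb). When each library was centred on its median over bound windows, 2 windows had no overlap in this direction. The median change of the 11 windows was 0.80 (quartiles 0.57 and 1.09) against 0.76 over all bound windows (quartiles 0.30 and 1.16). The difference of 0.04 is smaller than its SD between replicates of 0.22, and over the 4 pairs of libraries it ran from -0.11 to 0.17. The cluster median therefore did not differ from the series beyond the spread between replicates.

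**Figure D3:**
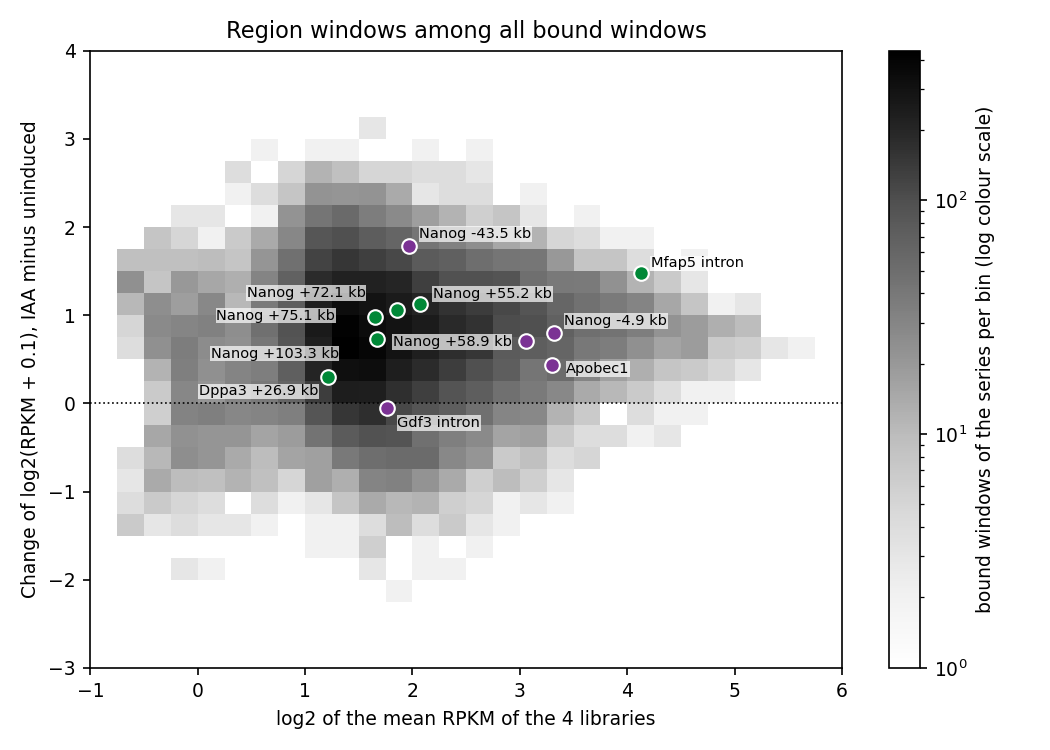
Change of log2(RPKM + 0.1) against the log2 mean RPKM of the 4 libraries for the 11 bound windows of the cluster (points, violet with and green without an OCT4 flag), over the number of all 16608 bound windows per bin (grey, log colour scale). The Mfap5 intron window has a mean of 17.5 RPKM and a change of 1.47, and the Gdf3 intron window lies just below a change of 0.

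The windows with an OCT4 flag were compared with the others inside the cluster. The 5 flagged windows had a median change of 0.71 (-0.06 to 1.78), and the 6 others had 1.02 (0.30 to 1.47). The difference was -0.31, with an SD between replicates of 0.19, but -0.0895, less than that SD, when the reads of each condition were merged, and -0.81 without uninduced replicate 2. It was negative in each of the 4 pairs of libraries, from -0.73 to -0.07, but between the uninduced replicates the same measure was -0.36. Over the whole series the medians were 0.39 with and 0.86 without the flag. The flagged windows of the cluster also had the higher median level, 8.34 RPKM (3.40 to 9.97) against 3.40 RPKM (2.32 to 17.5). These ranges overlapped, and the strongest window, Mfap5 intron, had no flag. The part of level in the difference was not tested. Among the flagged windows, 3 of 5 had both IAA libraries above both uninduced ones, against 4 of 6 others. The 5 windows with the enhancer flag had a median change of 0.80 and the 6 without it 0.85.

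The summed signal of the 11 bound windows was 36.0 and 62.7 RPKM in uninduced replicates 1 and 2 and 88.7 and 90.1 RPKM in IAA replicates 1 and 2. The means of 49.3 ± 18.9 and 89.4 ± 1.03 RPKM (SD, n = 2) gave a ratio of 1.81, while uninduced replicate 2 exceeded replicate 1 by a ratio of 1.74. The log2 difference of 0.91 was 0.51 without uninduced replicate 1 and 1.31 without uninduced replicate 2, and it was 0.21 with quantile normalization and 0.20 with centring. The exact permutation test (two-sided) gave p = 0.33, the smallest that 2 libraries against 2 allow. Without the Mfap5 intron window, a comparison chosen after the values were seen, the sums were 30.1, 49.1, 62.1 and 66.4 RPKM, a ratio of 1.62. The 3 bound windows within 20 kb of the bodies of the 3 genes summed to 13.5, 25.1, 27.3 and 26.9 RPKM.

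As a share of the reads in all bound windows, a measure that does not depend on how many reads fell outside them, the libraries were closer. The cluster took 0.0787% (104 reads, exact 95% binomial interval 0.0643% to 0.0954%) and 0.0966% (257 reads, 0.0851% to 0.109%) in uninduced replicates 1 and 2. It took 0.102% (611 reads, 0.0942% to 0.111%) and 0.0975% (171 reads, 0.0835% to 0.113%) in IAA replicates 1 and 2. The means were 0.0876% ± 0.0126 and 0.0998% ± 0.00325 (SD, n = 2, exact permutation p = 0.33), and the intervals of all 4 libraries overlapped. The log2 ratio of 0.19 was 0.05 without uninduced replicate 1, 0.34 without uninduced replicate 2 and 0.02 without the Mfap5 intron window. It turned to -0.16 when only the windows within 20 kb of the 3 genes were counted (exact permutation p = 0.67).

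Within the cluster the reads were spread unevenly over the windows. The Mfap5 intron window took 16.3% (9.82% to 24.9%) and 21.8% (16.9% to 27.3%) of the cluster's reads in uninduced replicates 1 and 2, and 30.0% (26.3% to 33.8%) and 26.3% (19.9% to 33.6%) in IAA replicates 1 and 2. Its share was larger in both IAA libraries, though the interval of uninduced replicate 2 overlapped both of theirs. That of uninduced replicate 1 overlapped the interval of IAA replicate 2. The Apobec1 window took 16.3% and 17.9% in uninduced and 13.7% and 11.1% in IAA libraries, the opposite order. Nanog -4.9 kb stayed between 12.9% and 15.6% in the 4 libraries.

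The share of the Nanog -43.5 kb window was 7.69% and 1.56% in uninduced and 6.87% and 6.43% in IAA libraries, so uninduced replicate 2 alone was low. The Gdf3 intron window took 6.73% and 6.61% in uninduced and 1.96% and 5.85% in IAA libraries, so IAA replicate 1 alone was low. Shares of one library sum to 100%, and a larger share of 1 window lowers those of the others.

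**Figure D4:**
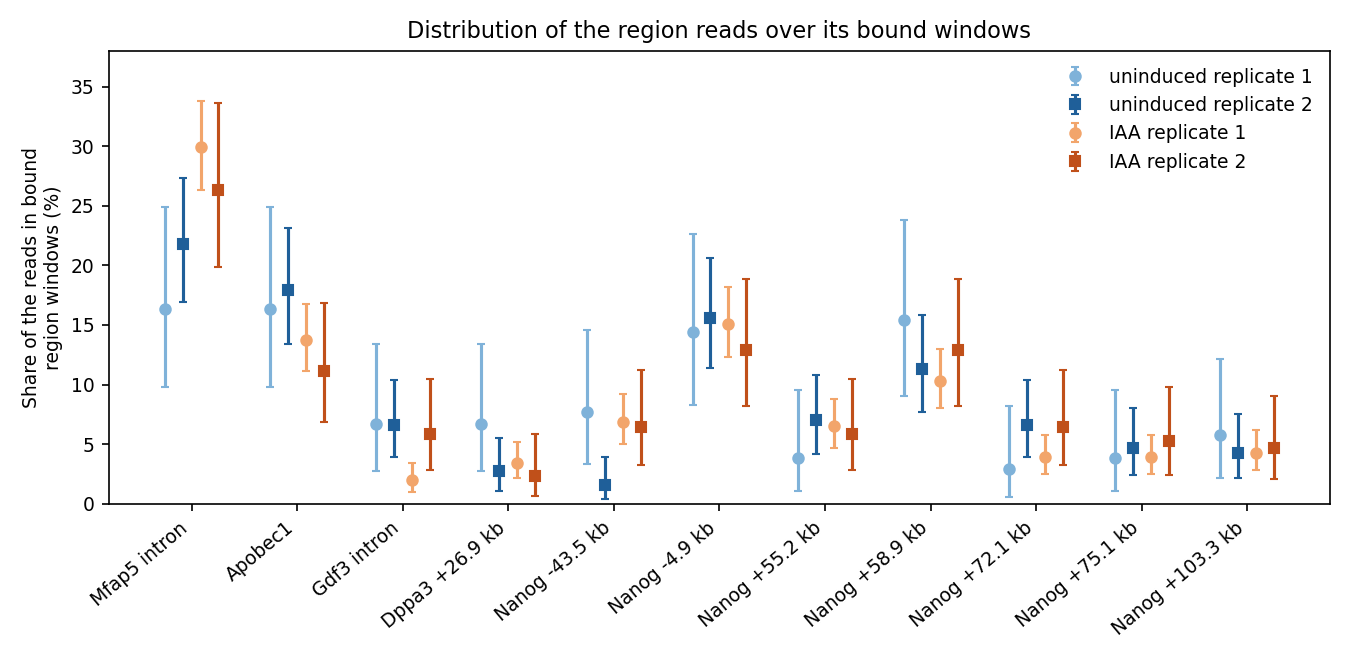
Share of the reads in the 11 bound windows of the cluster that fell in each window (%), for the 4 libraries, with exact 95% binomial intervals that cover counting error only. The Mfap5 intron window holds 30.0% and 26.3% in the IAA libraries and 16.3% and 21.8% in the uninduced ones.

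The cluster was set beside 15 other pluripotency loci, each by its strongest bound window within 100 kb: Pou5f1, Sox2, Klf4, Klf2, Klf5, Esrrb, Tfcp2l1, Prdm14, Tbx3, Zfp42, Sall4, Tet1, Tet2, Lefty1 and Tdgf1. Their mean levels ran from 5.10 to 41.7 RPKM, a range that holds the 4 strongest windows of the cluster, and 12 had an OCT4 flag. Of the 15 loci, 1 rose, Klf5 (1.14 ± 0.42 SE, adjusted p = 0.0478, limma), and 0 fell, and 13 estimates were positive, where 15.0% of all bound windows rose and 0.337% fell. With quantile normalization 0 windows of the series were called higher, Klf5 included. The median change of the list was 0.68, with the lowest at Tfcp2l1 (-0.57), and at 10 of 15 loci both IAA libraries lay above both uninduced ones, beside 60.5% of all bound windows. No test was made of a difference between this list and the cluster.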

How the data were processed

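NANOG ChIP-seq libraries of uninduced cells (2) and cells given IAA for 1.5 h (2) were grouped by their titles. Alignment to GRCm38/mm10 was by Bowtie2 2.3.4.3 (submitters' processing notes). As the methods describe, the authors removed duplicates, pooled the reads of the 2 conditions for MACS2 peak calling and counted reads around peak summits with DiffBind. The deposited values are RPKM per library, scaled to total reads without spiked-in chromatin or input subtraction, so a difference is relative to the library total. A further deposited table gives the authors' RPKM per condition, which equals the mean of the libraries within 5.0e-06, and flags for OCT4 sites and chromatin classes taken from published data.

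All values were whole multiples of the smallest in a library (tolerance 0.001), which was taken as 1 read. At 0.9 RPKM a window holds 2.60 and 3.69 reads in uninduced and 6.20 and 1.71 reads in IAA libraries. Changes were tested with limma 3.58.1 (R 4.3.3, eBayes with a variance trend, two-sided) on log2(RPKM + 0.1) over 16608 bound windows, with Benjamini-Hochberg adjustment and a threshold of 0.05. The fit was tested on simulated data. Intervals are 95% Poisson (reads) or exact binomial (shares) and cover counting error only. Summaries used Python 3.11.15, numpy 2.4.6, pandas 2.3.3, scipy 1.17.1 and matplotlib 3.10.9. Genes came from GENCODE mouse release 21, and coordinates are 1-based. The Nanog promoter came from RefSeq, and those of Gdf3 and Dppa3 were not used here. All windows of the interval are described. The members, lists, motifs and tests were chosen with earlier results of these data known. Alternatives were other pseudocounts (0.01 and 0.5), filters, scalings, tests, a replicate block, merged reads and leaving out each library.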

Additional observations from a re-analysis of the deposited data

How the results depend on the processing

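The 11 bound windows under 13 alternatives each gave 143 values, of which 119 kept the sign and the side of the threshold, 11 lost the call, 6 gained one and 7 changed sign. Windows called higher numbered 2, and 0 at an adjusted p under 0.01, with quantile normalization, with centring or with eBayes without a trend, and 0 to 8 when 1 library was left out (1 without uninduced replicate 1, 8 without replicate 2, 0 without either IAA library). In those fits the lone library of a condition is assumed to vary like the others. Over the series, 2493 windows were called higher and 56 lower, against 0 and 1 with quantile normalization, 47 and 198 with centring, 157 and 0 without a trend, 1749 and 140 without uninduced replicate 1, 6761 and 60 without uninduced replicate 2, and 0 and 0 without either IAA library (2266 and 108 at an unadjusted p under 0.05 without IAA replicate 1, 1402 and 32 without replicate 2). The median change of all bound windows was 0.04 with quantile normalization and 0.06 with centring. Windows with both IAA libraries above numbered 2, not 7, with quantile normalization and with centring. With 1 library left out they numbered 8 to 9, but leaving out a library cannot lower this count. The changes that turned sign were Apobec1 (-0.25 and -0.26 with these scalings, -0.0228 to 0.90 with 1 library left out), Dppa3 +26.9 kb (-0.48 and -0.39) and Gdf3 intron (-0.83 to 0.71 with 1 library left out). The difference by OCT4 flag was -0.0895 with merged reads and -0.81 to -0.15 with 1 library left out. The share of the cluster differed by -0.16 when limited to 20 kb around the genes. The cluster median relative to the series moved by less than its SD between replicates under every alternative computed for it, but its sign varied (-0.06 to 0.13 with 1 library left out). It was not computed with quantile normalization or centring, and a replicate block cannot move it. The causes were not tested. Replicate numbers gave no pairing (correlation of same-numbered deviations 0.0055 over 16608 windows, 2 pairs). A replicate block gave 2 windows called higher, and 2655 higher and 52 lower windows over the series. With each replicate number once per condition, the block leaves every change as it was and alters only the tests. Depth limits the weakest windows most, where the shallowest library, IAA replicate 2, holds 4 to 11 reads and uninduced replicate 1 holds 3 to 8.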
